A study of Mus musculus with 15 samples.

Results

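Imprinted genes of growth control were followed in GL261 glioma and in healthy mouse brain: H19, Igf2, Igf2r, Meg3, Dlk1, Peg3, Mest, Plagl1, Cdkn1c and Grb10. They are 10 of the 55450 genes of the annotation used, and 24650 of those genes had a value in some library. The genes were chosen by name, with earlier results of these data known, and H19 was included because it had stood far above healthy brain in untreated tumors. The tumor and brain levels of H19 are therefore given as a description without a test.

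RNA was sequenced from GL261 tumors of untreated mice, from GL261 tumors of mice given 50, 100 or 200 µg per dose of B20.4.1.1, an antibody against the vascular growth factor VEGF-A, and from healthy brain, with 3 individual samples in each of the 5 groups. GL261 is a mouse glioma cell line, and tumors and brains all came from C57BL/6 mice. Treatment ran from day 10 at intervals of 3 days until the endpoint, and mice were perfused with buffered saline before tissue was frozen. Groups follow the sample titles. The agent tag of replicate 3 disagreed with its title in all 4 tumor groups (the untreated one was tagged 50 µg, the 50 µg one 100 µg and the 100 µg one 200 µg, and the 200 µg one had no agent tag). Results of the 10 genes and counts of called genes are therefore also given without these 4 libraries where that changes them. The other genes named below were not checked in this way.

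Values are FPKM, fragments per kilobase of transcript and mega (M) mapped fragments, summed per gene over assembled transcripts and weighted by the share of the gene each one covered. Estimated depth was 18.5 to 33.2 M fragments in the tumor libraries and 16.6 to 59.0 M in the brain libraries. Of 12110 genes that reached 5 FPKM in some tumor, 1441 were listed at 0 in another, so a 0 may be a failed assembly. Over all genes of the tumors, replicate 3 at 50 µg stood alone, with 88071 transcripts listed against 38194 to 61599 in the other tumors, and replicate 3 at 100 µg lay among the 200 µg libraries in the first principal components. The tissue labels were checked against marker lists. The summed level of 8 neuron markers was 3.78 to 18.1 FPKM in tumors and 1839 to 2637 FPKM in brain, and that of 5 genes of dividing cells was 110 to 274 FPKM in tumors and 0.685 to 2.23 FPKM in brain. In such bulk tissue, fewer cells of a type and less RNA per cell cannot be told apart.

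Imprinted genes are expressed mainly from the copy inherited from a single parent, a state set by DNA methylation in the germ line. Many of them act on fetal growth, with paternally expressed genes such as Igf2, Peg3, Mest and Dlk1 generally promoting it and maternally expressed genes such as H19, Igf2r, Cdkn1c and Grb10 generally restraining it. H19 and Igf2 are neighbors that share enhancers, and the CTCF protein bound at the control region between them decides which one the enhancers reach. Tumor line and host share a strain background, so parental copies were not told apart here and the values below are total levels.

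Relative to healthy brain, Igf2 rose in untreated tumors and Peg3, Igf2r and Cdkn1c fell, at an adjusted p under 0.05, while Mest and Plagl1 did not pass the test. Meg3 and Grb10 read far lower in untreated tumors than in brain. Their means were under 1 FPKM in untreated tumors, and they met the filter (1 FPKM when both tissues are averaged together) through their brain levels alone. Such a gene had to differ, so its values are given without a p. Over all 16340 genes tested, 60.7% were called, 32.7% higher and 28% lower, so being called was common in this comparison and nothing is read from the number of the 10 that were called. No tested gene of the 10 was called in any comparison of a dose with untreated tumor, where 0% of all 14653 genes tested were called at 50 µg, 0.0887% at 100 µg and 2.83% at 200 µg. Dlk1 was below the filter in every comparison.

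**Figure D1:**
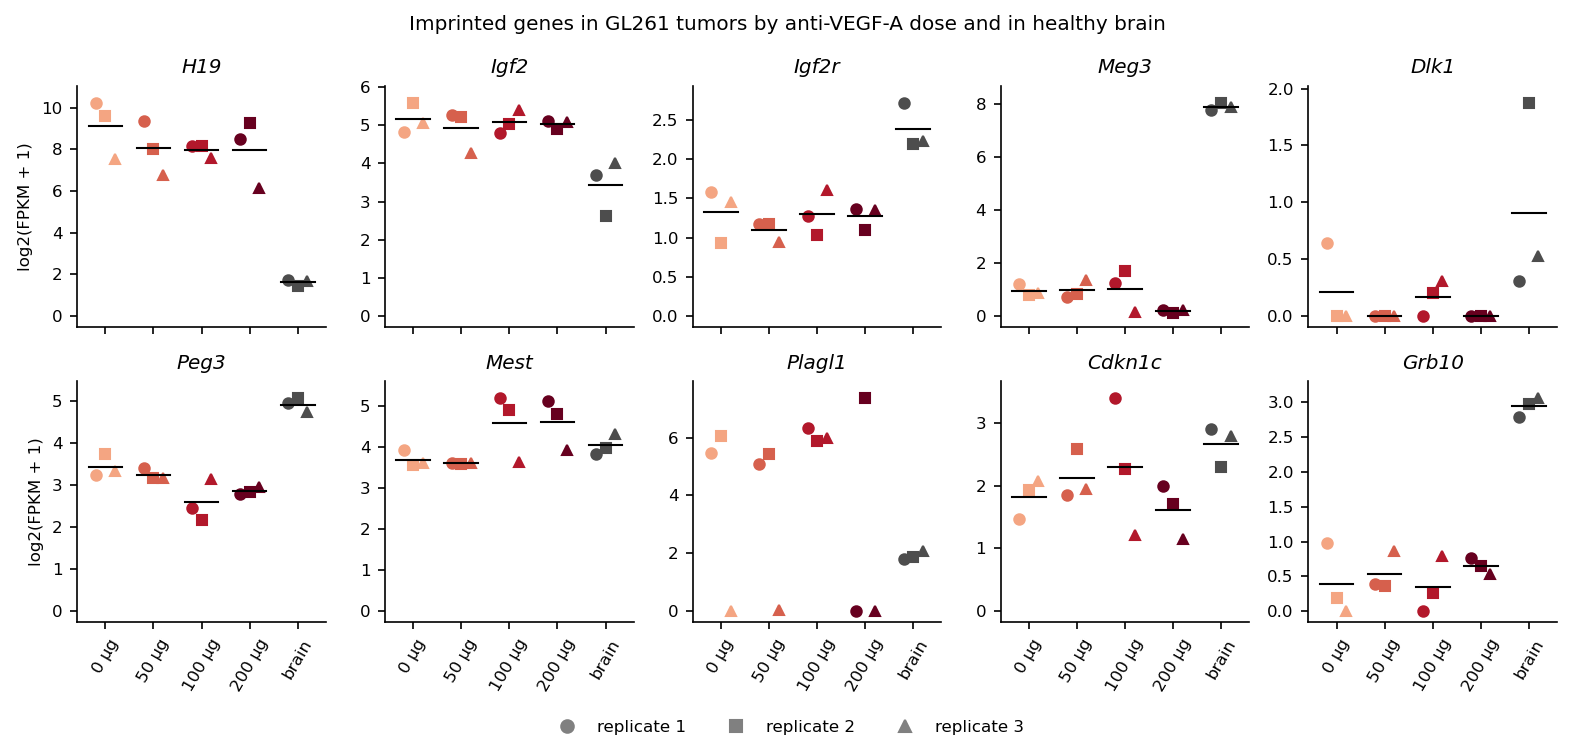
Levels of the 10 genes as log2(FPKM + 1) on the vertical axis in the untreated, 50, 100 and 200 µg tumor groups and in healthy brain, with a point for each library, a marker shape for each replicate number and a black line at the group mean (none for Plagl1). H19 sits near the floor of its panel in brain and above it in all 12 tumors, Meg3 shows the opposite, and Mest has 4 high tumor libraries.

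H19 makes a long non-coding RNA that is abundant in the embryo and is mostly silent after birth. It lies at chr7:142575529-142578143 on the minus strand of mm10 (ENSMUSG00000000031.16), with 2286 bp of exons. It read 1189, 761 and 183 FPKM in the 3 untreated tumors, 655, 261 and 109 FPKM at 50 µg, 286, 282 and 188 FPKM at 100 µg, 354, 613 and 69.9 FPKM at 200 µg, and 2.34, 1.73 and 2.22 FPKM in the 3 brains. Every tumor library lay above every brain library. The means were 711 ± 505 FPKM in untreated tumors and 2.10 ± 0.322 FPKM in brain (SD, n = 3 each), a ratio of 339. Among all genes with a value, H19 ranked from place 18 to place 807 in the tumor libraries, with a median of 151, and from 12725 to 13464 in the brain libraries. The log2 fold change of untreated tumor over brain was 7.48 with a standard error of 0.67, and 8.27 without the untreated library whose tag disagreed.

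H19 was assembled as a spliced gene over nearly its whole exonic length in both tissues. Transcripts covered 95.2 to 100% of its exonic length in tumors and 97.5 to 97.9% in brain, and the annotated start was reached in 12 of 12 tumors and 3 of 3 brains. In brain and in untreated replicate 2, the transcripts that reached it carried the whole plain FPKM sum. In other tumors they carried a part, such as 470 of 2269 FPKM in untreated replicate 1 and 28.6 of 105 FPKM in replicate 3 at 200 µg. The lowest H19 of each tumor group was that of replicate 3, the library whose agent tag disagreed with the title. H19 was not called at any dose. Against untreated tumor, its log2 change was -1.05 at 50 µg, -1.15 at 100 µg and -1.14 at 200 µg, each with a standard error of 0.90 (adjusted p = 0.889, 0.792 and 0.470, limma). The linear slope was -0.47 ± 0.42 per 100 µg (SE, adjusted p = 0.490), and the dose groups overlapped the untreated tumors. Single libraries moved these values: with a library left out, the change ran from -1.84 to -0.41 at 50 µg, from -1.94 to -0.59 at 100 µg and from -1.93 to -0.24 at 200 µg. The lowest of each was without untreated replicate 3, and the highest were without replicate 3 of the dose group at 50 and 200 µg and without untreated replicate 1 at 100 µg.

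The first exon of H19 also encodes miR-675, which is cut from the RNA. An Igf2 intron holds miR-483, and a Mest intron holds miR-335. Their mature forms are given because the host genes are compared here. These libraries did not measure the miRNAs themselves. Capitals mark the seed, bases 2 to 8, which pairs with target RNAs, and no seed is shared among the 6 forms (RefSeq, GRCm38.p6).
miR-675-5p: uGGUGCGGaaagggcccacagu
miR-675-3p: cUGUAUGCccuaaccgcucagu
miR-483-5p: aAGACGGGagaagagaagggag
miR-483-3p: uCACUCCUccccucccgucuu
miR-335-5p: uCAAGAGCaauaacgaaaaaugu
miR-335-3p: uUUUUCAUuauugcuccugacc
The hairpins lie at chr7:142577064-142577147 on the minus strand (miR-675, exon 1 of 5), chr7:142654924-142654996 on the minus strand (miR-483) and chr6:30741299-30741396 on the plus strand (miR-335).

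Igf2 encodes insulin-like growth factor 2, the fetal growth factor, and lies on the minus strand (chr7:142650766-142666816), 72.6 kb from H19. It read 27.1, 46.9 and 32.5 FPKM in untreated tumors, 37.5, 36.5 and 18.3 FPKM at 50 µg, 26.7, 32.0 and 41.4 FPKM at 100 µg, 33.7, 29.0 and 32.9 FPKM at 200 µg, and 11.99, 5.19 and 14.99 FPKM in brain. All 12 tumors lay above all 3 brains, by far less than for H19. In all 15 libraries, 100% of the Igf2 value came from transcripts that also covered exons of another gene. The level of Igf2 alone was therefore not told apart. Untreated tumors stood 3.31-fold above brain in the mean, and Igf2 rose by 1.71 ± 0.40 on the log2 scale (SE, adjusted p = 0.0105, limma). With a plain sum of FPKM the change was 1.496 and the adjusted p 0.0540. In the 3 brains, the summed level of 8 choroid plexus markers was 580, 13.9 and 1299 FPKM, ranked as their Igf2 levels were. In tumors that sum was 1.18 to 51.2 FPKM, and Folr1, Kcne2, Otx2 and Kl, 4 of the 8 markers, were listed at 0 in all 12. The part of choroid plexus in the brain level was not tested. Igf2 was not called at any dose, with log2 differences from untreated tumor of -0.23 at 50 µg, -0.07 at 100 µg and -0.12 at 200 µg (SE 0.30 each, adjusted p 0.908, 0.982 and 0.845). Without replicate 3 at 50 µg, its lowest tumor library, the 50 µg difference was 0.09.

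Tumor and brain joined a different exon to the Igf2 coding exons, an observation made after the transcripts had been seen and given without a test. The shared exon at chr7:142655654-142655816 holds the annotated start codon from its base 7. In 3 of 3 brains and in 0 of 12 tumors, it was spliced to the nearest annotated Igf2 first exon (chr7:142657388-142657496) across an intron of 1571 bp. In 12 of 12 tumors and in 0 of 3 brains, it was spliced across 11676 bp to an exon farther upstream (chr7:142667493-142668312), which the annotation gives to the overlapping gene Gm49394. No other exon was joined to it in any library. Both forms include the bases of the annotated Igf2 start codon. The annotation gives the Gm49394 form a start codon of its own farther upstream, and which codon is translated was not measured. The junctions are shown from the GENCODE M21 transcripts with the shared exon in capitals.
Tumor form: agtctttcctcagagGTACCAATGGGGATC
Brain form: cttacccaacttcagGTACCAATGGGGATC

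The transcripts with the far upstream exon read 39.6, 68.5 and 47.6 FPKM in untreated tumors, 54.8, 53.3 and 5.90 FPKM at 50 µg, 48.1, 46.7 and 60.4 FPKM at 100 µg and 49.3, 42.4 and 48.1 FPKM at 200 µg. The transcripts with the near first exon read 14.0, 3.598 and 21.2 FPKM in brain. The exon choice thus separated the tissues in all 15 libraries, at every dose. It was seen on both strands in 11 of 12 tumors, since these libraries do not keep strand. Transcripts in 1 of the 12 tumors, replicate 3 at 200 µg, went on to the annotated first exon of Gm49394 (chr7:142669621-142669942). The start used in brain lies in the RefSeq promoter window chr7:142657447-142657746 (minus strand, GRCm38.p6, 250 bases before to 50 after the start). The window is shown because no assembled tumor transcript began there. Capitals mark 2 GC boxes (GGGCGG, searched on both strands), a motif held by 35.7% of all 32851 promoter windows.
Igf2 window: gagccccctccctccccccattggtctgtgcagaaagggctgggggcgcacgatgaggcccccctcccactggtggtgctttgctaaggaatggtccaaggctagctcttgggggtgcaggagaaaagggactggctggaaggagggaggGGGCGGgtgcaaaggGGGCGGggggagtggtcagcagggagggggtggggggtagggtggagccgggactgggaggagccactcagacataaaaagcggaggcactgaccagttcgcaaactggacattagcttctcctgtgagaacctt
GC makes up 63.3% of it, against a median of 52.7% over all windows.

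**Figure D2:**
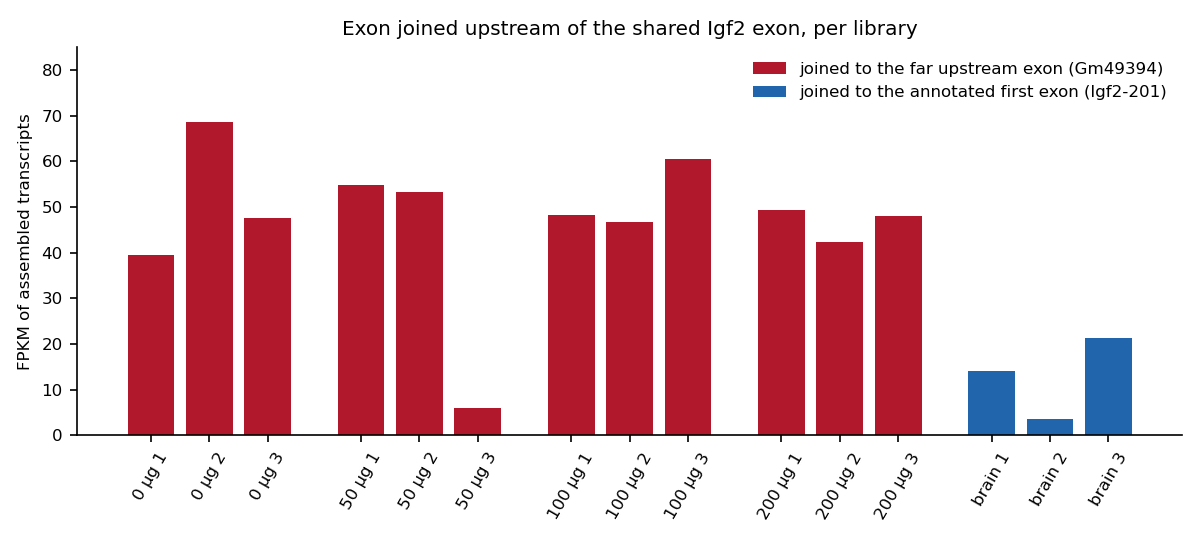
FPKM of assembled transcripts on the vertical axis in which the shared Igf2 exon is joined to the far upstream exon (red) or to the near annotated first exon (blue), with a bar for each of the 12 tumor libraries by dose and the 3 brain libraries. All tumor bars are red and all brain bars are blue, and replicate 3 at 50 µg has the lowest tumor bar at 5.90 FPKM.

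Igf2r encodes the receptor that takes Igf2 to the lysosome for breakdown. It read 2.00, 0.905 and 1.73 FPKM in untreated tumors and 5.56, 3.56 and 3.69 FPKM in brain. Each of the 12 tumors lay below each brain, with 1.25, 1.25 and 0.920 FPKM at 50 µg, 1.43, 1.04 and 2.05 FPKM at 100 µg and 1.57, 1.14 and 1.56 FPKM at 200 µg. Igf2r fell by 1.06 ± 0.25 on the log2 scale in untreated tumors (SE, adjusted p = 0.0104, limma), and with a plain FPKM sum the change was -0.78 with an adjusted p of 0.505. Its dose slope was 0.01 ± 0.10 per 100 µg (SE, adjusted p = 0.949), and -0.91 with a plain sum (adjusted p = 0.0339). Airn, the antisense RNA that silences the paternal Igf2r copy in mice, read 1.27, 0.831 and 2.11 FPKM in untreated tumors and 0, 0.132 and 0.0472 FPKM in brain. Its mean was too low for a test, and these libraries do not tell antisense reads from Igf2r intron reads.

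Meg3 and Dlk1 are neighbors on chromosome 12, 77.7 kb apart. Meg3 is a maternally expressed non-coding RNA, common in neurons, and Dlk1 is a membrane protein of the Notch ligand family. Meg3 read 1.30, 0.757 and 0.841 FPKM in untreated tumors and 216, 263 and 236 FPKM in brain. The log2 difference was -6.93 ± 0.18 (SE), and the brain mean was 247-fold above that of untreated tumors. In brain, 100% of the Meg3 value came from transcripts that also covered exons of another gene, and in tumors 0 to 46.3%. Meg3 ranked between place 86 and place 183 of all genes in brain and between 12357 and 17310 in tumors, the reverse of H19. The other tumors read 0.658, 0.772 and 1.54 FPKM at 50 µg, 1.35, 2.27 and 0.110 FPKM at 100 µg and 0.186, 0.0895 and 0.169 FPKM at 200 µg. All 3 libraries at 200 µg lay below all untreated ones, at levels under 1 FPKM, and the share of all genes that do so was not counted. Without the filter, the 200 µg difference was -0.77 and did not pass the test (adjusted p = 0.247, limma). Dlk1 was listed at 0 in 9 of 12 tumors, with 0.564, 0.151 and 0.242 FPKM in the other 3, and read 0.237, 2.66 and 0.443 FPKM in brain. Its mean was below the filter. Without the filter, the log2 difference of untreated tumor from brain was -0.69 and did not pass the test (adjusted p = 0.276, limma).

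Grb10, an adaptor that dampens insulin and IGF receptor signaling, read 0.970, 0.137 and 0 FPKM in untreated tumors and 5.89, 6.86 and 7.35 FPKM in brain. The log2 difference was -2.55 ± 0.28 (SE), and no tumor at any dose exceeded 0.970 FPKM. In mice, neurons express Grb10 from the paternal copy and most other tissues from the maternal one. Peg3, a zinc finger protein, read 8.34, 12.3 and 9.04 FPKM in untreated tumors and 29.5, 32.4 and 25.4 FPKM in brain. It fell by 1.48 ± 0.20 on the log2 scale (SE, adjusted p = 0.000919, limma). The neuron markers given above moved with Meg3, Grb10 and Peg3 in this comparison, and their part in these differences was not tested.

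Cdkn1c encodes the cell cycle inhibitor p57 and lies 792 kb beyond Igf2 on chromosome 7. It read 1.78, 2.80 and 3.21 FPKM in untreated tumors and 6.48, 3.94 and 5.95 FPKM in brain. It fell by 0.84 ± 0.25 on the log2 scale (SE, adjusted p = 0.0246, limma). The call was lost in 7 of 17 alternatives, among them the plain FPKM sum, where the change was 0.066 (adjusted p = 0.894). Without any single one of untreated replicates 1 and 2 or brain replicates 1 and 3, the adjusted p was 0.0541 to 0.0723. The treated tumors read 2.60, 4.995 and 2.84 FPKM at 50 µg, 9.51, 3.81 and 1.33 FPKM at 100 µg and 2.96, 2.26 and 1.21 FPKM at 200 µg. The highest of all 15 libraries was thus a tumor treated with 100 µg. In that library, replicate 1, the value came from 2 unspliced transcripts that covered 57.7% of the exonic length of Cdkn1c. Over all 15 libraries, 25.6 to 100% of the Cdkn1c value came from transcripts that also covered exons of another gene.

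Plagl1, a zinc finger protein that binds other imprinted genes, was assembled in some tumors and not in others. It read 43.2, 65.0 and 0 FPKM in untreated tumors, 33.1, 42.4 and 0.0287 FPKM at 50 µg, 79.0, 58.0 and 62.7 FPKM at 100 µg, 0, 164 and 0 FPKM at 200 µg, and 2.50, 2.62 and 3.23 FPKM in brain. In 8 tumors it stood above all brains, and in the other 4 it was below 1 FPKM, listed at 0 in 3 of them. Of the 8, transcripts lay on both strands in 4 and on a single strand in 4, including the highest library. Untreated tumor over brain gave a log2 change of 1.92 ± 1.55 (SE, adjusted p = 0.320, limma). Without untreated replicate 3, listed at 0, it was 3.84 ± 0.25 (adjusted p = 0.000333).

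**Figure D3:**
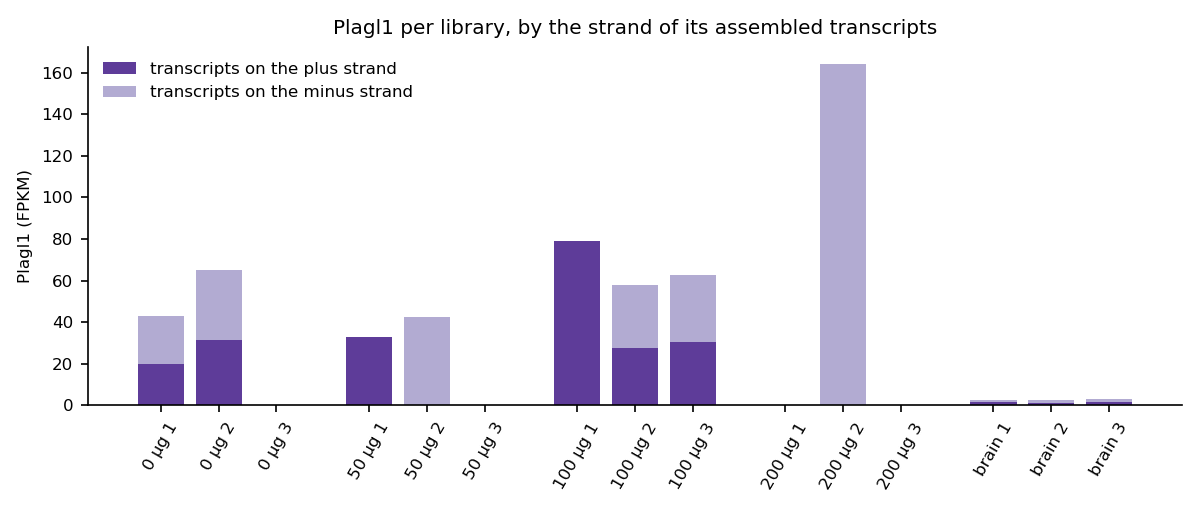
Plagl1 in FPKM on the vertical axis for each tumor library by dose and each brain library, split by the strand of its assembled transcripts. Bars are above 30 FPKM in 8 tumors and absent or below 1 FPKM in 4, among them 2 of the 3 libraries at 200 µg.

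Mest, a hydrolase-like enzyme of mesodermal tissue, had its 4 highest libraries among the tumors at 100 and 200 µg. It read 14.2, 10.9 and 11.2 FPKM in untreated tumors, 11.2, 11.001 and 11.4 FPKM at 50 µg, 35.8, 28.9 and 11.5 FPKM at 100 µg, 33.8, 27.3 and 14.2 FPKM at 200 µg, and 13.4, 14.9 and 18.9 FPKM in brain. Replicates 1 and 2 at 100 and 200 µg stood at 27.3 to 35.8 FPKM, and the other 8 tumors at 10.9 to 14.2 FPKM. The replicate 3 libraries at these doses, whose tags disagree with their titles, stood with the low ones. In all 15 libraries, 63.3 to 100% of the Mest value came from transcripts that also covered exons of another gene. The level of Mest alone was therefore not told apart. Untreated tumor over brain gave -0.35 ± 0.19 on the log2 scale (SE, adjusted p = 0.164, limma).

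Against untreated tumor, Mest gave a log2 difference of 0.88 ± 0.39 at 100 µg (SE, adjusted p = 0.550, limma) and 0.92 ± 0.39 at 200 µg (SE, adjusted p = 0.195). Neither passed the test at the threshold of 0.05. Without the 4 libraries whose tag disagreed, Mest passed at 200 µg with 1.22 ± 0.20 (SE, adjusted p = 0.0340) and not at 100 µg with 1.30 (adjusted p = 0.0843). The slope over all 12 tumors was 0.54 ± 0.20 per 100 µg (SE, adjusted p = 0.111), in a fit that called 7.53% of genes.

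Peg3 took the opposite course. It read 9.56, 7.94 and 7.88 FPKM at 50 µg, 4.46, 3.45 and 7.81 FPKM at 100 µg and 5.86, 6.16 and 6.77 FPKM at 200 µg, beside the untreated values of 8.34 to 12.3 FPKM. All libraries at 100 and 200 µg lay below all untreated ones, and the share of all genes that separate in this way was not counted. The log2 differences were -0.85 ± 0.25 and -0.57 ± 0.25 (SE), and neither passed the test (adjusted p = 0.304 and 0.201, limma). In the 4 libraries with high Mest, Peg3 was 3.45 to 6.16 FPKM, and in the other 8 it was 6.77 to 12.3 FPKM. Within those 8, Pearson's r between the log levels of Mest and Peg3 was -0.54 and Spearman's rho -0.71, given as a description. The summed level of 7 microglia and macrophage markers, none of them listed at 0 throughout a group, was 112 to 224 FPKM in untreated tumors, 120 to 198 FPKM at 50 µg, 36.3 to 56.0 FPKM at 100 µg and 33.7 to 46.6 FPKM at 200 µg. Of the 7 markers, Tmem119, a membrane protein of microglia, carried most of this difference. It read 52.8 to 162 FPKM in untreated tumors, 63.6 to 149 FPKM at 50 µg, 4.99 to 18.4 FPKM at 100 µg and 4.03 to 7.66 FPKM at 200 µg. Tmem119 fell at 200 µg (log2 -3.92 ± 0.51, SE, adjusted p = 0.00912, limma) and was not called at 100 µg (log2 -3.20, adjusted p = 0.0715). The other 6 markers were not called at either dose, and their sum was 36.5 to 61.7 FPKM in untreated tumors, 28.1 to 37.6 FPKM at 100 µg and 26.1 to 42.5 FPKM at 200 µg. The sum of all 7 had an r of -0.75 with Mest over the 12 tumors, given as a description. Their part in the Mest and Peg3 levels was not tested.

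**Figure D4:**
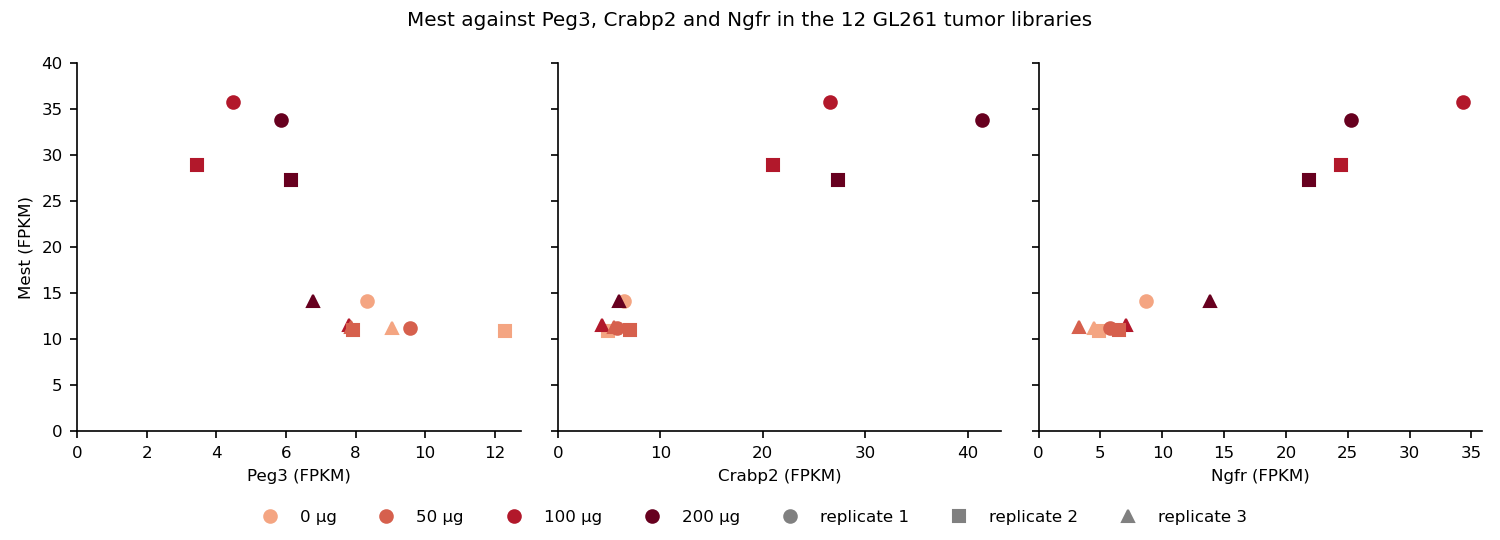
Mest in FPKM on the vertical axis against Peg3, Crabp2 and Ngfr in FPKM in the 12 tumor libraries, colored by dose, with a marker shape for each replicate number. The 4 libraries at 27.3 FPKM or more of Mest are replicates 1 and 2 at 100 and 200 µg, low in Peg3 and high in Crabp2 and Ngfr.

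Likeness was ranked over 6758 genes, only those that shared no transcript or annotated overlap with another gene, by Pearson's r of log2(FPKM + 1). The 5 genes with the level most like that of Mest over the 12 tumors were Crabp2 at 0.97, Ngfr and Arhgef19 at 0.95, and Mgat3 and Dbn1 at 0.94. These values rest on the same split of 4 and 8 libraries. Crabp2, a carrier of retinoic acid, was 20.98 to 41.4 FPKM in the 4 and 4.33 to 7.04 FPKM in the 8, and Ngfr, the low-affinity neurotrophin receptor, was 21.9 to 34.3 FPKM and 3.28 to 13.8 FPKM. Within the 8, r with Mest was 0.31 for Crabp2, 0.80 for Ngfr, 0.39 for Arhgef19, -0.08 for Mgat3 and 0.63 for Dbn1. Copg2, which overlaps Mest at its end and could share its reads, was 17.4 to 35.5 FPKM in the 4 and 10.99 to 15.4 FPKM in the 8. In the 4, 100% of the Mest value came from transcripts that also covered another gene.

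The genes most like H19 were Gm42372 at r = 0.92, Armcx6 at 0.90, Pnmal2 at 0.88, Tnnt3 at 0.87 and Cdkn2c at 0.85. Tnnt3, a troponin of skeletal muscle, lies 59.5 kb from H19 at chr7:142498836-142516009, and it read 0 to 4.08 FPKM in the tumors. The sum of 5 skeletal muscle markers, Tnnt3 among them, was 1.29 to 12.005 FPKM in tumors, with Acta1 and Myh4 listed at 0 in all of them, and 4.995 to 8.26 FPKM in brain. Those most like Igf2 were Gtf2h2 at 0.90, Slc6a8 at 0.87, Pla2g2f at 0.86, and Dgat2 and Gm12866 at 0.85. Igf2 could not enter the H19 list, because genes that share transcripts or annotated exons with another gene were not ranked. H19 was ranked and was not on the Igf2 list. H19 and Igf2 had an r of 0.26 over the 12 tumors, 0.57 without the 2 libraries farthest in H19. Peg3 was most like Grsf1 at 0.95, Igf2r like Ifi205 at 0.92 and Cdkn1c like Fignl2 at 0.91, and Plagl1 like Isg15 at 0.91, where the libraries at 0 enter the value. All correlations share library depth and are descriptions.

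Among 50 other imprinted genes, 35 met the filter against brain, 12 of them through brain alone and 2 through tumor alone. Of the 21 with a mean of at least 1 FPKM in both tissues, 5 rose and 6 fell in untreated tumors, where 60.7% of all genes tested were called (32.7% higher and 28% lower), and nothing is read from these counts. Here and for the lists below, that share also includes genes that met the filter through a single tissue, so the sets are unlike. Smoc1, a secreted calcium-binding protein, read 74.0, 78.3 and 54.1 FPKM in untreated tumors and 2.52, 4.23 and 2.73 FPKM in brain, a rise of 4.07 on the log2 scale, and H13 rose by 1.44. Snrpn fell by 6.55 and Snurf, which shares its locus, by 6.51 (adjusted p at most 0.000283 for the 4, limma).

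The genes that met the filter through a single tissue are given without a p. Phlda2, a placental growth restrainer near Cdkn1c, read 30.9, 31.9 and 113 FPKM in untreated tumors and was listed at 0 in all 3 brains. Ube3a, a ubiquitin ligase, read 12.6, 8.06 and 9.54 FPKM in untreated tumors and 0.252, 0 and 0 FPKM in brain. In brain too a 0 may be a failed assembly, which was not tested for Phlda2 or Ube3a. Trappc9 of the same list read 9.66, 8.76 and 0 FPKM in the 3 brains. Nap1l5 had a log2 difference of -6.44, Ndn, a neuronal growth suppressor, one of -5.53, and Rian, the non-coding RNA downstream of Meg3, one of -4.35. Rian was named for that position after its values were seen. All 8 neuron markers were lower in untreated tumors as well, with log2 differences from -7.41 for Snap25 to -4.62 for Gad2, and their part in the lower imprinted genes was not tested.

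**Figure D5:**
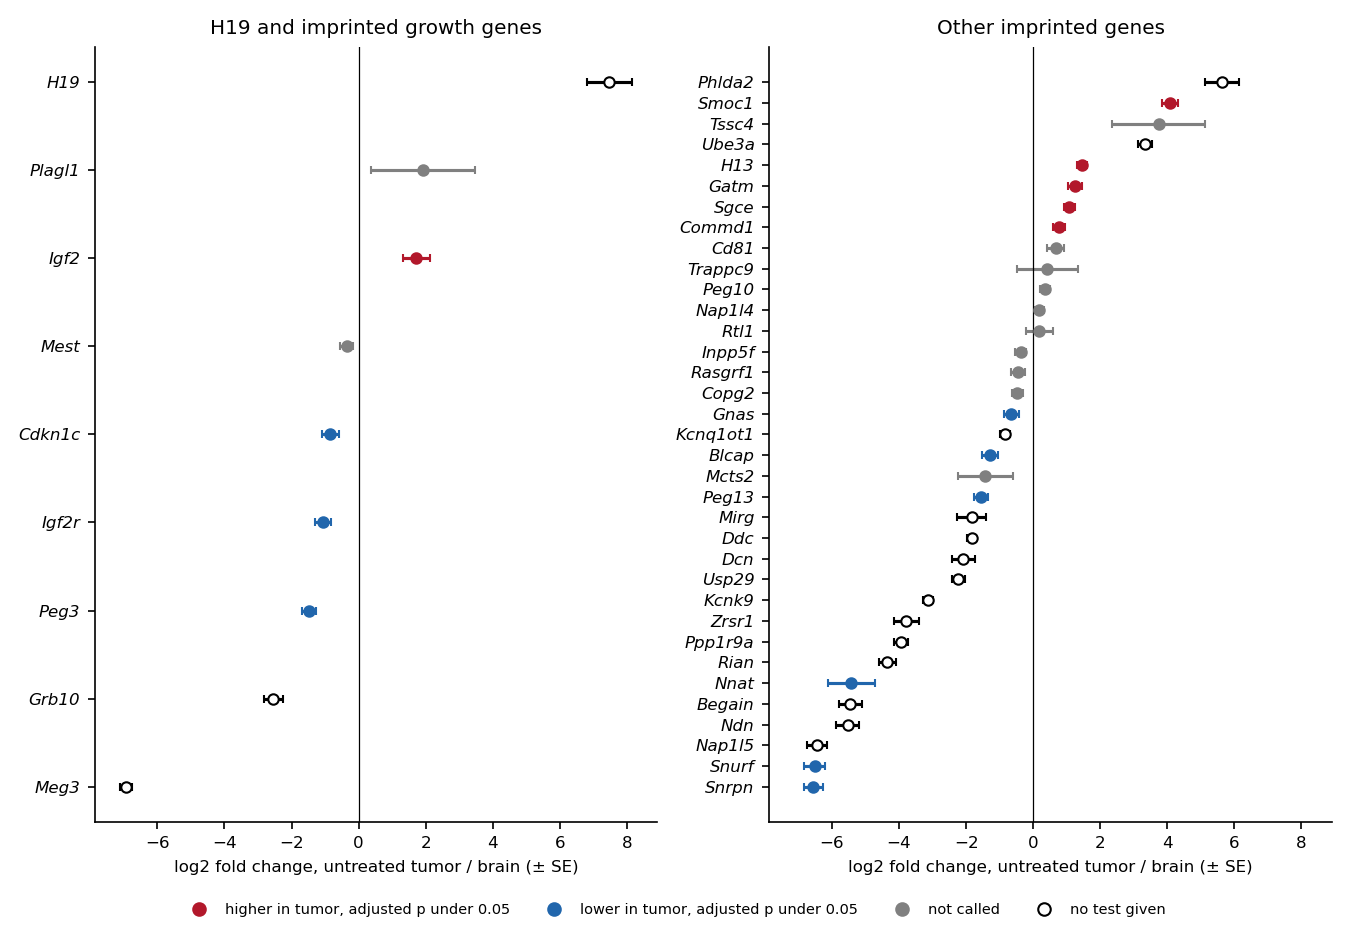
Log2 fold change of untreated tumor over brain on the horizontal axis, with its standard error, for the measured genes of the 10 and for 35 other imprinted genes, colored by whether the adjusted p was under 0.05. Open points are H19 and the genes under 1 FPKM in a tissue, for which no test is given. H19 lies farthest to the right at 7.48, followed by Phlda2, whose brain libraries are all listed at 0, and Meg3, Snrpn, Snurf and Nap1l5 farthest to the left at -6.44 and below.

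In the IGF pathway, 12 of 21 listed genes met the filter against brain, 2 of them through tumor alone and 1 through brain alone. Of the other 9, 1 rose and 2 fell, beside 60.7% of all genes called, and nothing is read from this count. Igfbp3, a binding protein of IGFs, rose by 3.03, while Igfbp2 fell by 2.63 and Igfbp6 by 1.45 (adjusted p at most 0.0455 for the 3, limma). Igf2bp2 and Igf2bp3, RNA-binding proteins that bind Igf2 mRNA, had means under 1 FPKM in brain and log2 differences of 3.63 and 2.89, given without a p. Igf2bp3 read 13.3, 12.5 and 10.97 FPKM in untreated tumors and 1.00, 0.242 and 1.30 FPKM in brain. Igfbp5, with a mean under 1 FPKM in untreated tumors, had a log2 difference of -3.97. Among tumors, no gene of this list was called at any single dose. Over the dose slope, Insr rose by 0.44 and Irs1 by 0.39 per 100 µg, and Igfbp3 fell by 0.57 per 100 µg (adjusted p = 0.0249, 0.0341 and 0.0421, limma). The slope fit called 7.53% of genes, with rises for 5.1% and falls for 2.43%, and nothing is read from these IGF calls as a count. With a library left out, that fit called 143 to 2016 genes, and the IGF genes were not followed there. Insr, the insulin receptor, read 7.06, 5.35 and 5.06 FPKM in untreated tumors and 11.8, 11.5 and 8.76 FPKM at 200 µg.

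Of 16 genes that set or keep imprints, 11 met the filter against brain, 1 of them, Uhrf1, through tumor alone. Of the other 10, 4 rose and 1 fell, beside 60.7% of all genes called (32.7% higher and 28% lower), and nothing is read from this count. Dnmt1, which copies DNA methylation at replication, rose by 2.70, and Setdb1 and Trim28, which silence imprinted regions, by 1.68 and 1.52 (adjusted p at most 0.0130 for the 3, limma). Uhrf1, which guides Dnmt1, had a log2 difference of 4.64, given without a p. Dnmt1 read 56.5, 47.9 and 55.5 FPKM in untreated tumors and 8.43, 7.32 and 6.39 FPKM in brain. Tet2, which oxidizes methylated cytosine, fell by 0.90 (adjusted p = 0.00588). Dividing cell genes moved with these rises, and their part was not tested.

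The let-7 axis is given because H19 RNA is reported to bind let-7 miRNAs. Of its 7 genes, 4 met the filter against brain, 1 of them, Hmga2, through tumor alone. Of the other 3, Hmga1 rose by 3.72 and Arid3a by 0.70 (adjusted p at most 0.0152, limma), beside 32.7% of all genes called higher, and nothing is read from this count. Hmga2, a chromatin protein of embryonic tissue and a let-7 target, read 28.0, 25.0 and 28.3 FPKM in untreated tumors and 0, 0 and 0.0984 FPKM in brain, a log2 difference of 4.76, given without a p. Lin28a was listed at 0 in all 15 libraries and Lin28b in all 12 tumors. Over the dose slope, in a fit that called 7.53% of genes, Hmga2 rose by 0.48 per 100 µg (adjusted p = 0.0295, limma), reading 27.0, 26.1 and 50.2 FPKM at 50 µg, 30.1, 47.4 and 41.4 FPKM at 100 µg and 60.4, 51.4 and 49.8 FPKM at 200 µg. The imprinted RNA Peg13 also rose, by 0.79 per 100 µg (adjusted p = 0.0258). It read 14.8, 20.1 and 15.8 FPKM in untreated tumors, 15.7, 22.7 and 7.79 FPKM at 50 µg, 32.3, 26.0 and 43.6 FPKM at 100 µg and 40.4, 46.6 and 46.7 FPKM at 200 µg. The untreated and 200 µg groups did not overlap in Peg13 or Hmga2, but neither gene was called at 200 µg. How many of all genes did not overlap was not counted.

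At 50 µg, no gene of the genome was called by limma, a share of 0%, and 588 of 14653 genes had an unadjusted p under 0.05. Of the 10 genes, 7 were measured in the tumor fit and 0 were called by limma at 50, 100 or 200 µg or over the slope. Their unadjusted p was under 0.05 for Peg3 and Mest at 100 µg, at 200 µg and over the slope, and for none of the 7 at 50 µg. Of all genes tested, 8.96% had such a p at 100 µg, 23% at 200 µg and 26.5% over the slope (limma). Nothing is read from these counts. Meg3, Dlk1 and Grb10 stayed below a mean of 1 FPKM there. These p-values measure the spread between individual samples of small groups, and a value that missed the threshold does not show that the groups were alike.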

How the data were processed

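RNA-seq of 15 mouse samples, 3 in each of 5 groups, was available as transcript tables. For each library the authors deposited assembled transcripts with exon coordinates and FPKM values, made with STAR and Cufflinks on mm10 per the submitters' processing notes, with versions not given in the sources used here. Each library was assembled apart. Per gene of the GENCODE M21 basic annotation, FPKM times the share of exonic length covered was summed over transcripts on its exons, ignoring strand, and single-exon transcripts under 200 bp were set aside (bedtools 2.31.1, Python 3.11.15). Because FPKM is a share of the library, a few very abundant transcripts depress the rest. Splice starts came from the transcripts' own introns.

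Tests used limma 3.58.1 in R 4.3.3 on log2(FPKM + 1), two-sided, for genes with a mean of at least 1 FPKM in the fit, adjusted by Benjamini-Hochberg over all genes tested, with calls at 0.05. Fold changes are on this scale, which understates changes of low genes. Untreated tumor and brain were compared over 6 libraries, and doses in a fit of the 12 tumors. The scripts were tested on simulated data. The 10 genes and all lists were chosen with earlier results of these data known. Named were the 10, the called genes of each list (at most 4 per direction by size), and the 5 genes most correlated with a member over the tumors, of which only the first is printed for Peg3, Igf2r, Cdkn1c and Plagl1. Labels give individual samples but no further origin. Alternatives covered the plain FPKM sum, pseudocount 0.1, filter, scaling, replicate block, variance model, samples in the fit, left-out libraries and, chosen after seeing the data, another annotation and the omission of genes under 200 bp.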

Additional observations from a re-analysis of the deposited data

How the results depend on the processing

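Against brain, 17 of 17 alternatives kept the count of called genes (9922) within 1.5 times. Of 153 alternative values of the measured genes, 142 were counted as unchanged in direction and side of the threshold. These include 17 of 17 each for Meg3 and Grb10, which had to differ, and 17 of 17 for H19. H19 has no test, and was counted by its direction and a shift under 1 SD of the untreated tumors. With a plain FPKM sum, Cdkn1c reversed to 0.066 (main -0.84), and the Igf2r dose slope reversed to -0.91 with an adjusted p of 0.0339 (main 0.01). In the dose comparisons, 579 of 616 values kept direction and side of the threshold. The count of called genes was less stable. At 50 µg (main 0) it was 1 with the plain sum, 1 with pseudocount 0.1, 1 without a filter, 1 without the 4 libraries whose tag disagreed, and 0 to 9 with a library left out. At 100 µg (main 13) it was 1 with the plain sum, 25 without a filter, 49 without those 4 libraries, 4 with limma's trend and robust options, and 0 to 24 with a library left out. At 200 µg (main 415) it was 12 with the plain sum, 885 without those 4 libraries and 8 to 1176 with a library left out, the lowest without 200 µg replicate 1 and the highest without 100 µg replicate 3. For the slope (main 1104) it was 391 with the plain sum, 635 without those 4 libraries and 143 to 2016 with a library left out, the lowest without 200 µg replicate 1 and the highest without 50 µg replicate 3. Where no value shows it, the cause was not tested.

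Over all genes, replicate numbers showed no clear pairing of the samples. Same-numbered tumor libraries had correlations of deviations from -0.08 to 0.10, and 1 of 18 was over 0.1. Such values cannot exclude a factor shared by a replicate number in single genes. The lowest H19 of each tumor group was that of replicate 3. With the replicate number as a block, 0 genes were called at 100 µg and 213 at 200 µg, and Cdkn1c against brain had an adjusted p of 0.0548. Other alternatives chosen after seeing the data, another annotation and omission of very short genes, changed no count of calls by over 1.5 times. Depth and assembly limit genes near 1 FPKM such as Dlk1, Grb10 and Meg3 in tumors.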
